A study of Mus musculus with 16 samples.

Results

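The 249 regions described here were open in every ATAC-seq library of activated B cells and ranked lower in all 4 Brg1 fl/fl lists than in any of the 4 Brg1 fl/+ lists. They were taken from 16512 regions obtained by joining the touching or overlapping peaks of the 8 peak lists on chromosomes 1 to 19, X and Y, of which 4582 held a peak in all 8 lists. In each list the highest fold enrichment of every shared region was turned into a percentile rank, where 100 is the most enriched of the 4582, and a region was kept when its highest rank in Brg1 fl/fl lay below its lowest rank in Brg1 fl/+. The 249 were 5.43% of the shared regions. The rule was met in the other direction by 337 regions, 7.35% of the shared regions.

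The libraries came from splenic B cells of C57BL/6 mice, isolated with CD43 microbeads and grown with LPS (10 µg/mL) together with IL-4 (20 ng/mL); each library was made from 50000 cells. Both genotypes carried CD23-Cre, which is active in mature B cells, so the Brg1 fl/+ control cells can lose 1 Brg1 allele and the Brg1 fl/fl cells can lose both. The sample labels give 72 hours of activation and the design text of the series gives 96 hours, and neither the labels nor the methods say how many mice stand behind the 4 libraries of a genotype. The labels give no age, and the methods give 1 age range, of young adult mice, for the animals of all experiments. Spread between libraries may therefore be technical in part.

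Brg1, encoded by Smarca4, is the ATPase of the BAF complexes, which use ATP to slide or evict nucleosomes and so keep regulatory DNA accessible. ATAC-seq reads this accessibility because the Tn5 transposase inserts its adapters mainly into DNA that no nucleosome covers. In B cells Brg1 is known for its role in lineage development and in the response to activation, where a resting cell enlarges its nucleus, enters the cell cycle and loads its promoters with polymerase.

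The fold enrichment of a peak compares the fragments piled up at its summit with the number that the surrounding DNA would give, so it is a ratio and not an absolute opening. The control lists held 6372 to 14614 peaks and the Brg1 fl/fl lists 6271 to 9216. Spearman's correlation of fold over the 4582 shared regions was 0.708 to 0.823 between Brg1 fl/+ libraries, 0.770 to 0.835 between Brg1 fl/fl libraries and 0.585 to 0.749 across genotypes, where the points share a library and its depth. Promoters of the B cell genes Ms4a1 and Pax5 held a peak in all 8 lists and that of Cd79a in 1 Brg1 fl/+ list, while those of Cd79b, Cd22 and Blk held none in any list. No myeloid, NK or erythroid marker promoter held a peak. Among 5 T cell markers the promoter of Lck held a peak in 1 Brg1 fl/+ list, and the plasma cell genes Sdc1 and Xbp1 held one in 3 and 2 Brg1 fl/+ lists and in 4 Brg1 fl/fl lists each.

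The sequences at the summits show what kind of DNA the set holds. The next 12 windows of 121 bases are those of the 7 promoters with the widest gap, of H2-Q6, which is compared with its paralog H2-Q7, and of the 4 regions away from promoters with the widest gap. They were read from the RefSeq GRCm38.p6 genome (mm10) on the strand of the gene named, and capitals mark matches to any of 21 short motifs, which are spelled out with the motif shares apart from NF-kB and CTCF, given by name. The H2-Q7 window (chr17:35439026-35439146, plus strand) held a CRE match in capitals, and the H2-Q6 window (chr17:35424685-35424805, plus strand) held none.
H2-Q7: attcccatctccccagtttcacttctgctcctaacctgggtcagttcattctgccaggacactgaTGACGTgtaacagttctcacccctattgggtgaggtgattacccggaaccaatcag
H2-Q6: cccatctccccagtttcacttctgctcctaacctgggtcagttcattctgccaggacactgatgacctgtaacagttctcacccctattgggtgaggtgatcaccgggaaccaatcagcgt

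The window shared by 3110009E18Rik and Dbi (chr1:120121086-120121206, plus strand), that of Ube2f (chr1:91250148-91250268, plus strand) and that of Med21 (chr6:146642467-146642587, plus strand) each held GCCAAT, a form of the CCAAT box bound by NFY, with an SP/KLF match besides in Med21. The Tmem64 window (chr4:15265675-15265795, plus strand) held an SP/KLF match. None of the searched letters matched in the windows of Aen (chr7:78895796-78895916, plus strand) and Mpzl1 (chr1:165634539-165634659, minus strand). The shorter CCAAT without the leading G was not put in capitals.
3110009E18Rik: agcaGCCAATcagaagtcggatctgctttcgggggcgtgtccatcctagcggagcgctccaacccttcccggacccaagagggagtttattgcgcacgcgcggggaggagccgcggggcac
Ube2f: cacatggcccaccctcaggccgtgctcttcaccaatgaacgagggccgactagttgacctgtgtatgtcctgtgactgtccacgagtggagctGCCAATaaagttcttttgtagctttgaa
Aen: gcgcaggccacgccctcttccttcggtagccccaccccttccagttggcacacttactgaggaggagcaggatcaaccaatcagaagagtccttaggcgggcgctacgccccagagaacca
Med21: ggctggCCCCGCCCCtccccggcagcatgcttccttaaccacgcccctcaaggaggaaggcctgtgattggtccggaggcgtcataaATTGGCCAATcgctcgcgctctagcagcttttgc
Mpzl1: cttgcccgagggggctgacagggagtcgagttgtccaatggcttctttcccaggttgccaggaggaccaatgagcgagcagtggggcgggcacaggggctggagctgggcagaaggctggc
Tmem64: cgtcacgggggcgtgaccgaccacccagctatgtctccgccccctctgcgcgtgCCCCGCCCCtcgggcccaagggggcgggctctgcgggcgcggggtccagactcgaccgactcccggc

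Of the windows away from promoters, that in the first part of Sp100 (chr1:85703709-85703829, plus strand) and that nearest to Cstad (chr2:30658527-30658647, plus strand) held no match. The window in Rilp (chr11:75510695-75510815, plus strand) held an SP/KLF match and the window nearest to Zfp324 (chr7:12949571-12949691, plus strand) held a RUNX match.
Sp100: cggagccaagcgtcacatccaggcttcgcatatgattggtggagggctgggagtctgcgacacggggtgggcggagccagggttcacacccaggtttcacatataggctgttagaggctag
Rilp: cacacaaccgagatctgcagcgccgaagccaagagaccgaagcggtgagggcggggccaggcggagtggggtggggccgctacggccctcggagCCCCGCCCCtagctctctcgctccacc
Zfp324: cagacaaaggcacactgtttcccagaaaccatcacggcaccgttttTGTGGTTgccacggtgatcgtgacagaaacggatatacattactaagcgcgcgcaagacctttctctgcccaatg
Cstad: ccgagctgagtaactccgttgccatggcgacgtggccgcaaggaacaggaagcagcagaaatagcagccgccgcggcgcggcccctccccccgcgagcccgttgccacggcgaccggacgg

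Values of the chosen regions follow as a description, since every comparison of Brg1 fl/fl with Brg1 fl/+ in these lists was used to choose them. Their median percentile was 73.4, 70.1, 66.9 and 71.1 in the Brg1 fl/+ lists of replicates 1 to 4, and 34.3, 34.7, 34.4 and 34.8 in the Brg1 fl/fl lists. The control medians lay in the upper part of the scale and the Brg1 fl/fl medians in the lower part. The rule chose regions by these same ranks, so nothing is read from this split. Regions chosen in the other direction showed the mirror image. Their list medians ran from 36.5 to 47.3 among the controls and from 70.4 to 74.3 for Brg1 fl/fl. Among the 249 regions, the median of the mean Brg1 fl/+ percentile was 68.7 and that of the mean Brg1 fl/fl percentile 33.6. The median drop was 26.5 percentile points. The log2 fold was also averaged over the 4 lists of each genotype. Its median difference, Brg1 fl/fl minus Brg1 fl/+, was -0.55 in the 249 regions and -0.17 in all shared regions. The members ranged from -1.13 to 0.03.

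**Figure D1:**
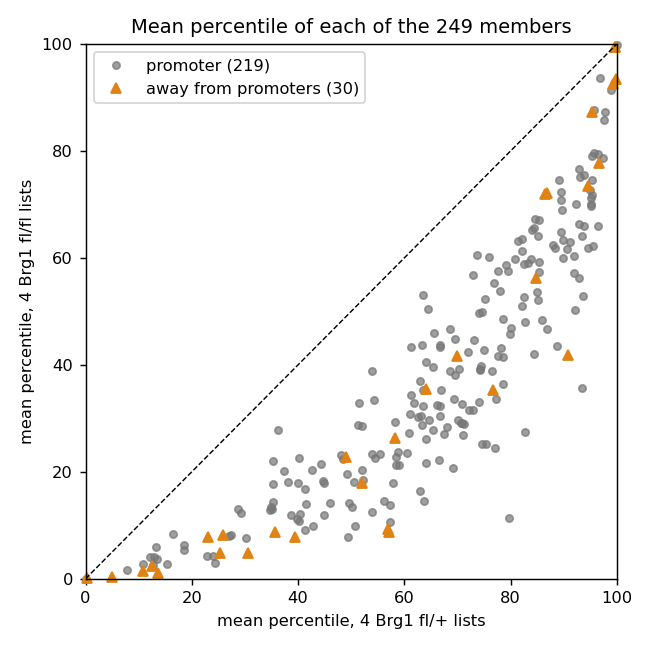
Each point is 1 of the 249 members, placed by its mean percentile in the 4 Brg1 fl/+ lists (x axis, 0 to 100) and in the 4 Brg1 fl/fl lists (y axis, 0 to 100), with 219 promoter regions as circles, 30 regions away from promoters as triangles and a dashed line of equal percentile. The medians were 68.7 on the x axis and 33.6 on the y axis, and the rule places every point below the line.

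Relative to all shared regions, the members had fewer fragments at the summit in every Brg1 fl/fl library than in any control library, and a lower local background. At the summit, the members' median fragment number was 78, 51, 25 and 39 in Brg1 fl/+ replicates 1 to 4 and 37, 17, 33 and 33 in Brg1 fl/fl, against 78, 50, 23 and 36 and 47, 22, 42 and 42 for all shared regions. Set against all shared regions of the same list, the members' median was 1.05 ± 0.0441 in the controls and 0.783 ± 0.00679 in Brg1 fl/fl (SD, n = 4 each). The fragment number and the local background were both computed from the fold that chose the members, with the −log10 p of the call. Nothing is therefore read from their ratios. The local background under the members was also lower than under all shared regions, at 0.906 ± 0.0212 of it in the controls and 0.845 ± 0.00595 in Brg1 fl/fl (SD, n = 4 each). Counting error alone gives an SD of 11.3% to 20.0% of the members' median fragment number in the Brg1 fl/+ libraries and of 16.4% to 24.2% in the Brg1 fl/fl libraries, so single regions are known less well than the medians.

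**Figure D2:**
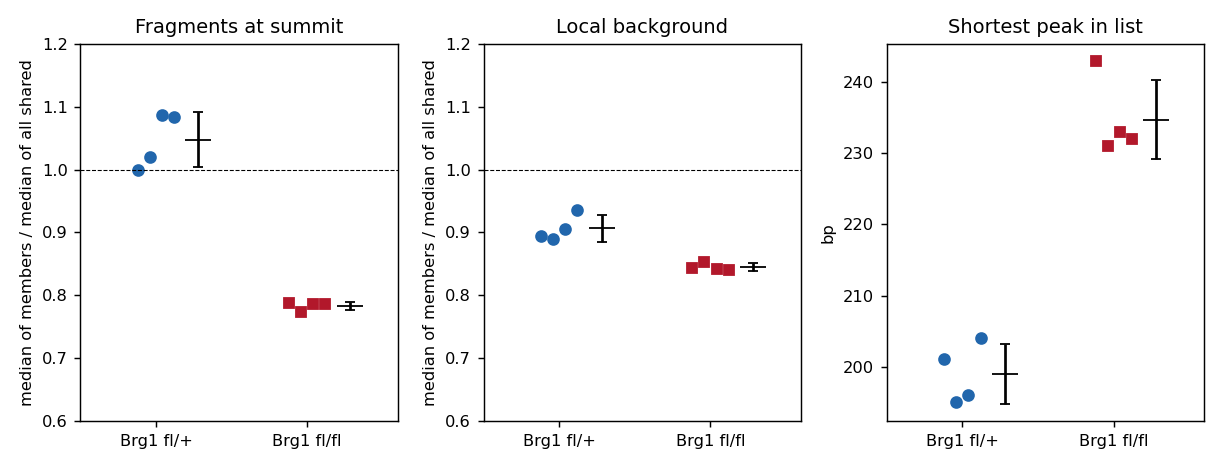
Points are the 4 libraries of each genotype (Brg1 fl/+ circles, Brg1 fl/fl squares), with the mean and SD beside them; the left panels give the members' median fragments at the summit and local background as a ratio to the median of all shared regions, with a dashed line at 1, and the right panel the shortest peak of the list in bp. The fragment ratio was 1.00 to 1.09 for the controls and 0.773 to 0.787 for Brg1 fl/fl, and the shortest peak 195 to 204 bp and 231 to 243 bp.

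The peak lists themselves differed between the genotypes in a property that moves with the result. The shortest peak was 201, 195, 196 and 204 bp in the Brg1 fl/+ lists and 243, 231, 233 and 232 bp in the Brg1 fl/fl lists, without overlap. MACS2 by default ties its shortest peak to the fragment length it estimates. The fragment length of the calls and the genotype cannot be told apart in these 8 lists.

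All 8 libraries were used to choose the 249 regions, so none is left to compare them in. The same order on 2 replicates of each genotype gives other, larger sets, whose values in the other 2 replicates follow as a description. Regions that ranked lower in both Brg1 fl/fl lists than in both Brg1 fl/+ lists of replicates 1 and 2 numbered 1138, and 384 of them (33.7%) did so again in replicates 3 and 4, where the share over all shared regions was 21.5%. The opposite order was seen in 11.3% of the 1138 and in 22.7% of all shared regions. Chosen on replicates 3 and 4, 984 regions gave 384 (39.0%) with the same order in replicates 1 and 2, where the share over all shared regions was 24.8%, and 14.4% had the opposite order against 28.4%. The median difference, Brg1 fl/fl minus Brg1 fl/+, shrank from -22.9 percentile points in the choosing replicates 1 and 2 to -5.85 in replicates 3 and 4, and from -18.9 to -8.13 the other way round, while it was 0.41 and 0.42 over all shared regions. The 384 regions include the 249 by construction, and an exact permutation test of 2 against 2 libraries cannot give a two-sided p below 0.333. The difference in shortest peak was present in replicates 1 and 2 and in replicates 3 and 4.

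H2-Q7, a nonclassical MHC class I gene of the Qa-2 family, had the widest gap of all members. Its promoter region (chr17:35438725-35439552) had a fold enrichment of 14.96, 15.8, 14.3 and 15.3 in Brg1 fl/+ replicates 1 to 4 and of 8.38, 4.76, 6.57 and 8.57 in Brg1 fl/fl, or 15.1 ± 0.612 against 7.07 ± 1.78 (SD, n = 4 each). Its percentile ran from 67.2 to 88.2 among the controls and from 1.42 to 19.97 in Brg1 fl/fl, which leaves a gap of 47.3 percentile points. The fragments at the summit, not scaled for depth, were 97, 77, 44 and 57 in Brg1 fl/+ and 42, 14, 29 and 38 in Brg1 fl/fl. The neighbouring paralog H2-Q6 (chr17:35424359-35425150) stood at percentiles of 63.0, 58.3, 87.8 and 47.1 in Brg1 fl/+ and 7.99, 23.9, 27.5 and 27.1 in Brg1 fl/fl. Windows of 301 bases at both summits were identical in 94.8% of aligned columns, so reads may be split between the paralogs and their values are uncertain and not independent. Ranked by fragments at the summit, the gap of H2-Q7 stayed above 0 and that of H2-Q6 did not, at -1.29 percentile points. The H2-Q7 region was no longer shared by all 8 lists when only peaks with −log10 q of at least 5 were kept.

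The second widest gap, 37.5 percentile points, was at the promoter shared by 3110009E18Rik and Dbi (chr1:120120833-120121432), where Dbi encodes the acyl-CoA binding protein. The fold there was 18.1, 16.9, 16.6 and 17.0 in Brg1 fl/+ and 11.3, 7.88, 10.4 and 8.44 in Brg1 fl/fl. It was among the strongest regions of the control lists, at percentiles of 88.0 to 97.1, and ranged from 18.5 to 50.5 in Brg1 fl/fl. Ube2f (chr1:91249989-91250656), a conjugating enzyme for the ubiquitin-like protein NEDD8, had a fold of 15.04, 15.4, 12.4 and 12.9 in Brg1 fl/+ and 9.35, 6.99, 6.92 and 9.05 in Brg1 fl/fl. Its percentiles of 60.7 to 74.8 and 8.30 to 28.6 did not overlap.

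Aen, a nuclease that is induced by p53 during apoptosis, had the fourth widest gap, 29.7 percentile points. At its promoter (chr7:78895690-78896164) the fold was 16.7, 14.7, 13.2 and 14.2 in Brg1 fl/+ and 10.2, 7.68, 9.80 and 9.79 in Brg1 fl/fl, with percentiles of 67.7 to 86.3 and 28.8 to 38.0. Med21 (chr6:146642376-146642988) encodes a subunit of Mediator, the complex that links transcription factors to RNA polymerase II. Its fold was 16.3, 17.4, 14.8 and 16.1 in Brg1 fl/+ and 10.2, 9.18, 11.4 and 9.83 in Brg1 fl/fl, which moved it from percentiles of 82.5 to 91.6 to percentiles of 33.5 to 54.3. Mpzl1 (chr1:165634183-165634737), a cell surface glycoprotein that binds the phosphatase SHP2, stood at percentiles of 81.9, 96.0, 84.6 and 68.3 in Brg1 fl/+ and 19.1, 41.0, 18.7 and 31.1 in Brg1 fl/fl.

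The other members of the 20 widest gaps had gaps between 19.1 and 27.1 percentile points. They included the promoters of Tmem64, of Blzf1 with Nme7, of Ugdh, which makes UDP-glucuronate, of Hscb with the checkpoint kinase Chek2, and of U2af1, the splicing factor that reads the end of introns. Those of Acot7, Eif2b2, Wipf2, Glt28d2 with Gm37240, Tpd52l2 and Zfp280b completed the promoters. Tmem64 (chr4:15265369-15266307) stood at 68.7, 64.2, 71.0 and 76.2 in Brg1 fl/+ and at 20.8, 37.1, 37.1 and 24.1 in Brg1 fl/fl. Ugdh (chr5:65435572-65436233) stood at 79.1, 75.1, 74.5 and 62.8 in Brg1 fl/+ against 28.6, 37.1, 25.4 and 35.2 in Brg1 fl/fl. In Blzf1 the Brg1 fl/fl percentiles were almost the same in all 4 libraries, at 30.1, 29.2, 28.1 and 29.3, against 73.4, 81.9, 56.1 and 71.1 in Brg1 fl/+. Wipf2 was the exception among these promoters besides H2-Q6: ranked by fragments at the summit its gap of 20.0 percentile points became -4.04.

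**Figure D3:**
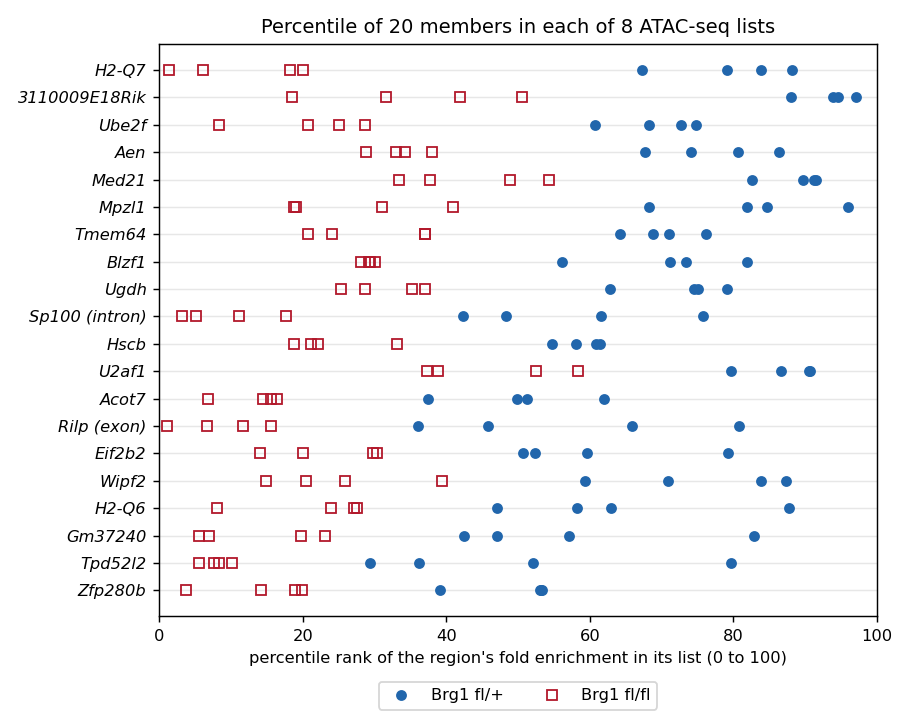
The percentile (x axis, 0 to 100) of the 20 members with the widest gap is drawn for every library, Brg1 fl/+ as filled circles and Brg1 fl/fl as open squares, 4 of each per row, and rows are named by gene with the class where it is no promoter. The space between the symbols narrows from 47.3 percentile points for H2-Q7 at the top to 19.1 for Zfp280b at the bottom.

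Gaps were mostly small. The median gap was 5.75 percentile points, 68 had one of at least 10 and 16 one of at least 20. The regions nearest to the limit could have fallen on either side, with gaps of 0.0218 to 0.0437 percentile points for the last regions inside (a promoter of CT010467.1, an intron at Irf2bp2 and an intergenic region near Zfp825) and of 0 to -0.0218 for the first regions outside (an intron at Rpusd4 and the promoters of Gm23935 and Rab3d). The rule used the control ranks, and a region low in the control lists has little room to rank lower still. Members numbered 98 of the 969 shared regions with a mean Brg1 fl/+ percentile above 75 (10.1%) and 21 of the 997 up to 25 (2.11%), from which nothing is read.

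The 5 members with the highest mean Brg1 fl/+ percentile lay at 99.3 or above, where the percentile scale has little room. They were a promoter of Gm11410, an exonic region nearest to Ccnh, a region at a transcript end near Lars2, and intergenic regions nearest to Zfp825 and Nkx2-6. The exonic region near Ccnh (chr13:85126728-85127384) fell by far more than its gap of 1.13 percentile points shows. Its fold was 29.8, 31.3, 29.5 and 28.1 in Brg1 fl/+ and 18.9, 16.1, 13.9 and 16.4 in Brg1 fl/fl. Its fragments, not scaled for depth, were 174, 120, 91 and 95 against 60, 34, 35 and 47. In the intergenic region near Zfp825 the unscaled fragments lay opposite to the rank, at 254 to 315 in the controls and 324 to 338 in Brg1 fl/fl. There 99.6% of the sequence was soft-masked as repeats, where reads map uncertainly.

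Position in the genome was not used by the rule. Of the 249 members 219 (88.0%, 95% exact binomial interval 83.3% to 91.7%) were at promoters, from 1000 bp before to 100 bp after a transcript start, and so were 86.9% of all shared regions. The interval takes the regions as independent and does not measure the spread between libraries or ranking rules. Ranks within promoter and distal regions gave a share of 82.4%, outside it. Promoter regions were members in 5.50% of cases and regions away from promoters in 4.99%. Regions ranked higher were at promoters in 80.1% of cases. The shared regions are promoter-rich to begin with, since 56.5% of all 16512 regions were at promoters.

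Promoter members sat close to the start itself. The region's centre was within 100 bp of the nearest start in 189 of 219 promoter members (86.3%), in 74.9% of all shared promoters and in 56.7% of those ranked higher. Protein-coding starts were present in 210 promoter members, and 31 (14.2%) held starts of several coding genes, against 16.8% of all shared promoters. Members were spread over the chromosomes. They made up 8.06% of the shared regions of chromosome 4, 8.05% of chromosome 1 and 7.69% of chromosome 2, and 2.63% of chromosome X. Another member was found within 50 kb of 7 members, 2 of which are the H2-Q6 and H2-Q7 regions, and the next shared region along the chromosome was a member after 12 of 249 members (4.82%).

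The surroundings of the members were set beside those of other shared regions. Among 119 shared regions within 50 kb of a member that were no members themselves, the median difference in mean percentile, Brg1 fl/fl minus Brg1 fl/+, was 0.62, and among 1529 such regions near other shared regions it was 0.93. Of 290 regions near a member that were missing from at least 1 list, 60.7% were found in more control lists than Brg1 fl/fl lists and 24.1% in fewer, against 68.5% and 19% of 3443 near other shared regions. These differences were not tested. The Smarca4 locus lies on chromosome 9, and 4 of 28 shared regions within 5 Mb of it were members (14.3%, against 5.43% of all shared regions), among them the Atg4d and Dock6 promoters, with 3 ranked higher. The Smarca4 promoter was no member. It ranked at 78.5, 73.4, 86.0 and 71.8 in Brg1 fl/+ and at 92.4, 85.1, 94.6 and 94.0 in Brg1 fl/fl, and a peak at a promoter does not check whether the floxed part of the gene was deleted.

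The members were narrow. Promoter members had a median width of 636 bp, all shared promoters 706 bp and those ranked higher 801 bp, and away from promoters the medians were 612, 755 and 963 bp. Split into 10 bins of about equal size by width, the share of members fell from 9.57% in the narrowest bin to 1.96% in the widest, while the share ranked higher rose from 4.26% to 13.1%. Ranking each region against regions of like width gave 237 members, of which 181 were among the 249. The part of peak width and of the called fragment length in the result was not tested.

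**Figure D4:**
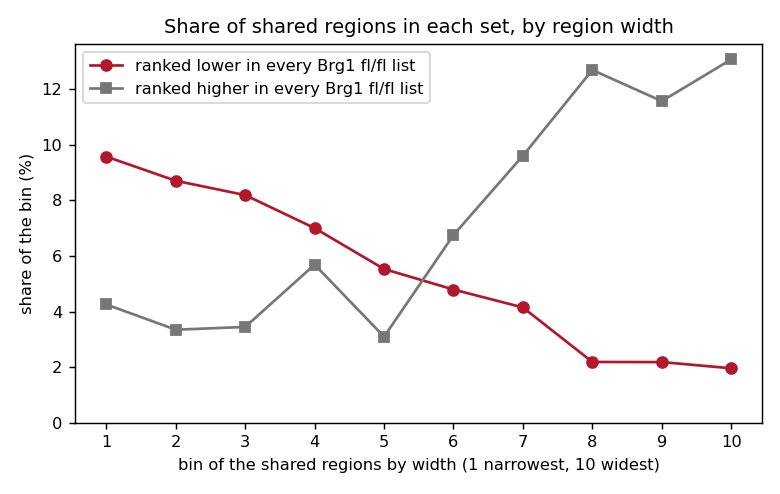
The 4582 shared regions were split into 10 bins by width (x axis, 1 the narrowest), and the y axis gives the share of each bin, in percent, that ranked lower (circles) or higher (squares) in every Brg1 fl/fl list. The share ranked lower fell from 9.57% to 1.96% and the share ranked higher rose from 4.26% to 13.1%.

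Base composition set the members apart less. Median GC content was 65.6% in promoter members and 66.1% in all shared promoters, and the CpG ratio, observed over expected, was 0.828 and 0.851. Over 10 bins of GC content the share of members stayed between 3.49% and 7.21%, and was lowest in the bin with the highest GC. Soft-masked sequence made up a median of 3.75% of promoter members and 4.01% of all shared promoters.

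Motifs were searched in 201 bp at the summit, on both strands, as exact letters that may overlap one another. They were ETS (CCGGAAG), PU.1 (GAGGAAGT), IRF (GAAANNGAA), the ETS-IRF composite (GGAANNGAA), AP-1 (TGANTCA), RUNX (TGTGGTT), the MYC E-box (CACGTG), the E2A E-box (CAGGTG), E2F (GCGGGAA), NRF1 (CGCATGCG), YY1 (AAGATGG), NFY (GCCAAT), SP/KLF (GGGGCGGGG), EBF1 (CCCNNGGGA), OCT (ATTTGCAT), CRE (TGACGT), STAT (TTCNNNNGAA), GFY (ACTACAATT) and TATAAA, the core promoter box, and NF-kB and CTCF consensus letters. The ETS, PU.1 and composite letters share GGAA. A match describes the letters and is no evidence of binding.

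The letters GCCAAT stand for the CCAAT box of NFY, a histone-fold factor that binds close upstream of many transcription starts. They were found in 29.7% of the 219 promoter members, 23.5% of all 3981 shared promoters and 15.6% of the 270 ranked higher. Away from promoters 7 of 30 members held them, against 58 of 601 shared regions and 1 of 67 ranked higher. Among promoters under the median width the shares were 33.3%, 23.5% and 12.9%, and among the wider ones 21.2%, 23.4% and 16.5% in the same order. The shorter CCAAT, searched after seeing the data, was in 50.2% of promoter members, 38.9% of all shared promoters and 30.4% of those ranked higher. Its shares were 50.3%, 39.9% and 30.0% in the narrow promoters and 50.0%, 38.0% and 30.5% in the wide ones, so the width pattern seen with GCCAAT was not seen with CCAAT. In 64 coding promoter members with a GCCAAT match, its median position was 75 bp before the start. It lay 0 to 150 bp upstream in 53 of them (82.8%), in 66.3% of all shared promoters with a match and in 47.6% of those ranked higher. Matches were searched only within 100 bp of the summit, and promoter members were centred near the start more often. The part of this in the position was not tested.

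The letters bound by SP/KLF factors were present in 32.4% of promoter members, 29.1% of all shared promoters and 27.4% of those ranked higher. For CRE, the site of the CREB and ATF family, these shares were 14.6%, 12.8% and 8.89%. ETS letters were at 18.3%, 17.9% and 13.0%, so the members differed from those ranked higher but hardly from shared promoters at large. E2F letters went the other way, with 5.94% of promoter members, 8.11% of all shared promoters and 10.4% of those ranked higher. The letters for PU.1, IRF, AP-1, RUNX, OCT and STAT were each in 0.913% to 2.28% of promoter members and in 1.38% to 2.89% of all shared promoters. The E2A E-box was in 8.22% of promoter members and 8.94% of all shared promoters, EBF1 letters in 6.85% and 6.10%, NF-kB letters in 4.57% and 4.40%, and the MYC E-box in 10.5% and 10.1%.

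**Figure D5:**
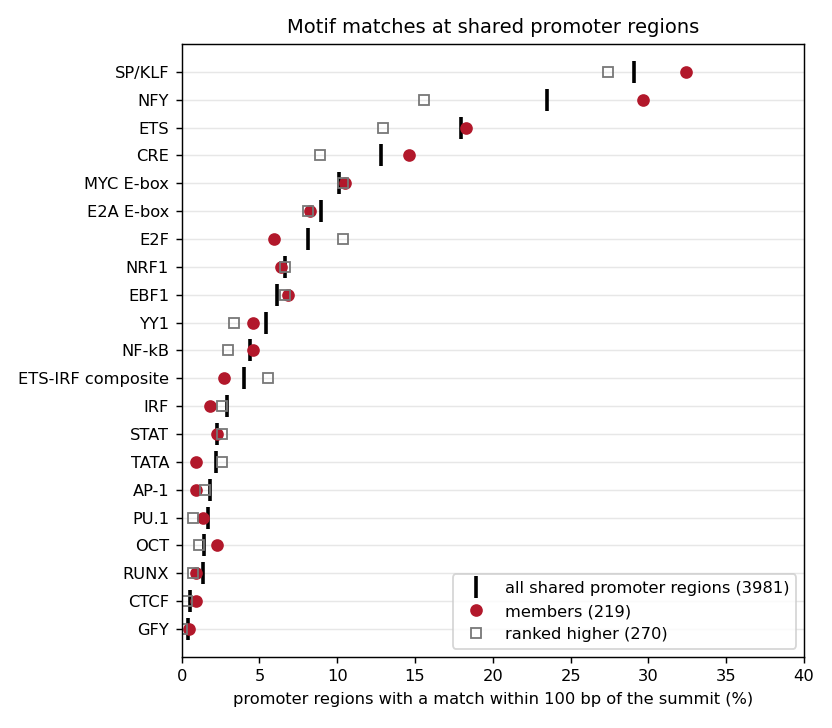
For each of 21 motifs (y axis) the share of promoter regions with a match within 100 bp of the summit is given in percent (x axis) for all 3981 shared promoters (bars), the 219 promoter members (filled circles) and the 270 promoters ranked higher (open squares). NFY shows the widest spread, at 23.5%, 29.7% and 15.6%.

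The genes at the members' promoters were counted in 29 lists, and 45 members stood at a promoter of a listed gene. Of all shared promoters 5.50% were members and 6.78% ranked higher, and these shares stand beside each list. The genes of the lists were written out after ranked regions had been seen, so the lists are a description and none was tested. Genes of MHC and antigen presentation held 4 members among 14 shared promoters, with 1 ranked higher. Besides H2-Q7 and H2-Q6, whose values are not independent, these were Rfx5 and Rfxank. Both are subunits of the RFX complex that binds the X box of MHC class II promoters. Rfx5 (chr3:94953820-94954432) had a fold of 13.6, 12.7, 10.2 and 10.8 in Brg1 fl/+ and 7.30, 6.56, 9.10 and 9.84 in Brg1 fl/fl, with a gap of 3.50 percentile points. Rfxank shares its promoter region (chr8:70139032-70139656) with Borcs8 and the B cell transcription factor gene Mef2b, so 1 region counts for 2 lists.

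B cell transcription factors held 3 members among 11 shared promoters, and 1 was ranked higher. Irf8, which guides B cell and germinal center programs, had a promoter fold (chr8:120735917-120736682) of 14.5, 14.8, 9.10 and 12.2 in Brg1 fl/+ and 8.36, 6.35, 7.65 and 6.51 in Brg1 fl/fl. Its percentiles of 34.6 to 68.4 and 4.89 to 18.2 did not overlap. Fos, an immediate early partner in AP-1, stood low in every list, at 26.2, 22.98, 36.3 and 22.7 in Brg1 fl/+ and 12.8, 4.89, 6.38 and 8.18 in Brg1 fl/fl. Jak3, the kinase of the receptors that share the common gamma chain, was a member outside the lists, named here after its values were seen, at 11.2 to 14.8 and 0.305 to 6.66.

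Cell cycle genes were found on both sides of the limit. Mitosis and G2/M genes held 3 members among 29 shared promoters (Ccnb1, Kif23 and Cdc26) with 1 ranked higher, and DNA replication and S phase genes 3 among 32 (Pole, Orc1 and Chaf1b) with 2 ranked higher. Ccnb1 encodes cyclin B1, which drives entry into mitosis, and its promoter (chr13:100786265-100786748) had a fold of 18.2, 18.3, 11.6 and 12.4 in Brg1 fl/+ and 8.61, 7.53, 9.90 and 8.04 in Brg1 fl/fl. Replicates 1 and 2 of Brg1 fl/+ were well above replicates 3 and 4. Pole, the catalytic subunit of DNA polymerase epsilon, shares a promoter with Pxmp2 and stood at 81.6, 65.6, 78.7 and 57.7 in Brg1 fl/+ and 25.0, 22.8, 29.3 and 39.4 in Brg1 fl/fl. The E2F and pocket protein family held no member among 11 shared promoters and 1 ranked higher, histones none of either among 21, and cyclins and CDKs 1 (Ccnl2) of 21 with 1 ranked higher.

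DNA repair genes held 4 members among 40 shared promoters (Chek2, Ddb2, Pms1 and Poli), and 1 was ranked higher. The region shared by Chek2 and Hscb (chr5:110839551-110840191) had percentiles of 60.9, 58.0, 54.8 and 61.5 among the controls, a narrow range, and of 22.1, 33.2, 21.1 and 18.7 in Brg1 fl/fl. Splicing factors held 6 members and 6 ranked higher among 43, in equal number. The members with the widest gaps were U2af1, Lsm10, Snrpa and Tra2b. U2af1 stood at 90.5, 86.7, 79.7 and 90.7 in Brg1 fl/+ and 58.4, 52.6, 38.9 and 37.2 in Brg1 fl/fl.

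Among genes of protein synthesis, aminoacyl-tRNA synthetases held 3 members (Aars, Kars and Pars2) among 15 shared promoters and none ranked higher. Aars, which charges tRNA with alanine, had a fold of 13.6, 12.1, 12.2 and 12.3 in Brg1 fl/+ and 7.998, 6.56, 8.30 and 8.98 in Brg1 fl/fl. Cytosolic ribosomal proteins held 4 members and 3 ranked higher among 57, mitochondrial ribosomal proteins 1 and 3 among 26, and translation factors 1 (Eif2b2) and 7 among 36. For protein turnover, ubiquitin ligases and proteases held 5 members and 12 ranked higher among 130, the proteasome 1 and 0 among 19, and the unfolded protein response 1 (Canx) and 0 among 25. Heat shock proteins and chaperones held no member and 2 ranked higher among 32.

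Each list of complexes that act on chromatin held 1 member at most, too few to set apart from the 5.50% of all shared promoters. BAF and PBAF subunits held none among 12 shared promoters and 3 ranked higher, and the MYC and MAX network none among 8 with 2 ranked higher. Other remodelers held 1 (Chd6) and 1 among 19, Mediator and acetyltransferases 1 (Med21) and 1 among 18, and corepressors and HDACs 1 (Sap30) and 1 among 15. Oxidative phosphorylation held 2 members (Atp5b and Ndufb4) and 1 ranked higher among 32, and the Zfp zinc finger genes 3 and 5 among 82. No member was found at 13 shared promoters of the NF-kB family, where 1 was ranked higher, or at 5 of B cell receptor signaling, 8 of the interferon response, 9 of costimulation and activation and 7 of the BCL2 family, where none was ranked higher. Of the genes the study names, 5 had a shared promoter and none was a member.

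The 30 members away from promoters were 9 intergenic regions (4.71% of the shared regions of that class), 8 in exons (4.57%), 7 in introns (3.72%) and 6 of the 47 at transcript ends (12.8%). Of the 30, 12 were over 10 kb from a coding start, as were 231 of the 601 shared regions away from promoters. Within 1 kb of a coding start lay 8 of the 30 and 247 of the 601, so the group is not all distal. The widest gap among them, 24.7 percentile points, was in the intron of Sp100 (chr1:85703530-85704113), 380 bp after the start of this component of PML nuclear bodies. The fold there was 15.7, 14.2, 10.3 and 11.3 in Brg1 fl/+ and 6.55, 5.202, 7.29 and 8.36 in Brg1 fl/fl. The fragments, not scaled for depth, were 98, 63, 24 and 41 in Brg1 fl/+ and 19, 9, 20 and 20 in Brg1 fl/fl. With only peaks of −log10 q of at least 5 kept, the Sp100 region was no longer shared by all lists. The exonic region of Rilp (chr11:75510301-75510909), an adaptor of lysosomes, stood at 80.8, 45.8, 65.9 and 36.03 in Brg1 fl/+, a wide spread, and at 11.7, 6.62, 15.5 and 1.13 in Brg1 fl/fl.

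Regions at transcript ends followed. One lay at the end of 1810019N24Rik, 16124 bp from the start of Zfp324 (chr7:12949440-12949987, gap 16.3), and one at the end of 9330198N18Rik, 53423 bp from the start of Cstad (chr2:30658289-30658990, gap 15.9). The others among the 10 widest had gaps of 5.29 to 9.82 and lay in or nearest to Mrps27, Cdkn2b, Mid1, Slc6a9, Atf3 and Tigd2. Cdkn2b encodes the CDK inhibitor p15, and the exonic region 116 bp after its start (chr4:89310577-89311268) had percentiles of 39.7, 34.3, 48.3 and 20.3 in Brg1 fl/+ and 6.09, 11.6, 6.86 and 10.4 in Brg1 fl/fl. Of these 10 regions Cstad, Mrps27, Mid1 and Atf3 no longer had a gap above 0 when ranked by fragments at the summit, at -4.25, -1.75, -1.11 and -0.786.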

How the data were processed

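The authors used Bowtie2 (mm10) for alignment and ran MACS2 on each ATAC-seq library by itself, and the deposited lists give, per peak, the fold enrichment as a ratio and the −log10 p and −log10 q of the call. Tool versions are not given in the sources used here, and no read counts or depths were used. The lowest −log10 q of a list was 1.31 to 1.36. Fragments at the summit and the local background were computed here from the fold and the −log10 p (tolerance 0.002, solved for 97.9% to 99.8% of peaks). Starts came from GENCODE M21, and sequence from RefSeq GRCm38.p6, whose chromosome lengths contain all peaks.

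Ranking, joining and annotation ran in Python 3.11.15 with pandas 2.3.3, numpy 2.4.6 and scipy 1.17.1; the code was tested on simulated data. No test was made, since the rule used the genotype contrast. The members and lists were chosen with earlier results of these data known, and the genes of the lists were written out after ranked regions had been seen. Regions named are the 20 with the widest gap, the 10 widest away from promoters, the 3 on each side of the limit, the 5 with the highest Brg1 fl/+ percentile and up to 4 per gene list; Jak3 and the promoter of the targeted gene Smarca4 were named besides. Alternatives were other measures, peak filters, joining, bins and libraries left out. Coverage tracks and the 8 RNA-seq libraries were not analysed here. Some genes are not reported here.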

Additional observations from a re-analysis of the deposited data

Results flagged for a closer look

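In 68 sets of 4 libraries examined, 5 had a library far from the other 3, where chance alone gives about 1 in 20. Brg1 fl/fl replicate 2, the library with the shortest peak list, stood apart in the members' median fold (8.13, the nearest other library 9.80), in their median peak width (364 bp, the nearest 477 bp) and in their median fragments relative to all shared regions (0.773, the nearest 0.786). Over all shared regions its median fold was 9.27 and its median width 433 bp, against 11.07 and 555 bp in Brg1 fl/fl replicate 3. The fold and width are thus low in the whole library, and its fragment ratio rests on medians of 17 and 22 fragments. Brg1 fl/fl replicate 1 had the longest shortest peak, at 243 bp, with the nearest at 233 bp. For the Zfp280b promoter, Brg1 fl/+ replicate 3 had a percentile of 39.1 and the nearest other library 53.1.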

How the results depend on the processing

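The count of members was 249 and stayed between 215 and 318 with other measures, peak filters, joining or bins, but which regions were members changed: 179 of the 249 were members when ranked by −log10 p, 145 when ranked by fragments and 117 when fragments were ranked within width bins, an alternative chosen after seeing the data. A gap of at least 5 percentile points left 133 members (92.5% at promoters) and 166 regions ranked higher. Averaging libraries 1 with 2 and 3 with 4 gave 1076 and 1214, as fewer values were compared. Ranks within promoter and distal regions gave a promoter share of 82.4%. The replicate block, in which each Brg1 fl/fl list lay below the Brg1 fl/+ list of its number, gave 604 members and 689 ranked higher. The same-numbered libraries' deviations correlated at -0.0908 to 0.0122 and none matched its own number best, so no pairing by number was seen. This cannot tell whether same-numbered libraries shared a preparation, which the labels do not say. Leaving out 1 library gave 324 to 386 members, a promoter share of 86.6% to 90.2% and 405 to 576 ranked higher; the highest counts came without Brg1 fl/+ replicate 3 (386 and 576) and, for members, replicate 4 (378).

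The named regions were chosen for a wide gap above 0. Under the 10 settings whose outcome the rule did not fix, 257 of 271 recomputed gaps stayed above 0. Several of these settings re-ranked the same fold values and could hardly turn a wide gap, so this total says little about stability. All reversals came from ranking by −log10 p, by fragments or within width bins. With only peaks of −log10 q of at least 5 kept, H2-Q7, Sp100, Slc6a9 and Atf3 were no longer shared regions and had no gap. The same held for Rilp, Gm37240, Zfp280b, Cdkn2b and Slc6a9 with the same number of peaks per list. By −log10 p the gap of Mid1 was -5.56. By fragments at the summit the gaps were -4.04 for Wipf2, -1.29 for H2-Q6, -4.25 for Cstad, -1.75 for Mrps27, -1.11 for Mid1 and -0.786 for Atf3, and within width bins as well -7.33 for Wipf2, -0.328 for H2-Q6, -8.07 for Cstad, -5.11 for Mrps27, -1.55 for Cdkn2b and -0.532 for Mid1. Within width bins by fold the gap of Slc6a9 was -1.90. The cause was not tested. The NFY share of promoter members, 29.7%, was 33.3% below and 21.2% at or above the median width, a division chosen after seeing the data, and 50.2% with CCAAT in place of GCCAAT, likewise. Depth limits single regions most in Brg1 fl/fl replicate 2, where the members' median was 17 fragments.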
